A study of Mus musculus with 2 samples.

Results

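H3K56ac was examined at the genes of the core pluripotency factors Pou5f1 (which encodes Oct4), Sox2 and Nanog in mouse embryonic stem cells. The windows around the genes were set in mm9 coordinates: 20 kb at Pou5f1 (chr17:35635000-35655000, gene 35642977 to 35647722), 130 kb at Sox2 (chr3:34540000-34670000, gene 34548927 to 34551382) and 70 kb at Nanog (chr6:122600000-122670000, gene 122657507 to 122664651). Every deposited interval that overlapped a window by 1 bp or more was taken, which gave 110 of the 92549 intervals of the list: 15 at Pou5f1, 60 at Sox2 and 35 at Nanog. None crossed a window edge.

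The intervals come from chromatin immunoprecipitation and sequencing (ChIP-seq) of the feeder-independent stem cell line E14Tg2a, grown with serum and the cytokine LIF, which keeps the cells undifferentiated. Of 2 libraries, both from the same untreated line, 1 was H3K56ac ChIP and the other sheared input, which was not analysed here. The study relates H3K56ac to Oct4. The list gives positions alone, with no heights, reads or scores, so the depth is unknown and an interval's width is not its strength. With 1 library there is no replicate error, and all comparisons are between places in this list. No RNA was measured, so the labelled cell type could not be checked by the expression of its markers.

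Oct4, Sox2 and Nanog are DNA-binding proteins that hold embryonic stem cells in the undifferentiated state. Oct4 and Sox2 bind side by side to a joined octamer and SOX sequence, and all of the 3 proteins bind enhancers of their own genes and of one another's. Lysine 56 of histone H3 sits where DNA enters and leaves the nucleosome, and its acetylation lowers the grip of the histones on the DNA there.

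The promoters are shown because the intervals at the gene starts differ between the genes. Each line gives the 250 bases before the gene start from the RefSeq promoter table (GRCm38.p6, plus strand, 5′ to 3′), in which all of the 3 genes were found. Capitals mark matches on either strand to the octamer ATGCAAA, the SOX sequence ACAATG and the GC box GGGCGG.
Pou5f1 (chr17:35505782-35506031): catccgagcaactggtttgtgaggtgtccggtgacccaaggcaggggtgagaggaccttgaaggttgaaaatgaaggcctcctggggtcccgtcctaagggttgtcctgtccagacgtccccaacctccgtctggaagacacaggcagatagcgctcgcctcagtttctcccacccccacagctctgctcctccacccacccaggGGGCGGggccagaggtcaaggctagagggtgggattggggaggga
Sox2 (chr3:34649745-34649994): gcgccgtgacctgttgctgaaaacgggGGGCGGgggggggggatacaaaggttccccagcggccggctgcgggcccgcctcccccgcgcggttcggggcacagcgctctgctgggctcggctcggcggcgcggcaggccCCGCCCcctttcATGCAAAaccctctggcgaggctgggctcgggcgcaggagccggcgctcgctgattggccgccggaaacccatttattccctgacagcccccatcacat
Nanog (chr6:122707239-122707488): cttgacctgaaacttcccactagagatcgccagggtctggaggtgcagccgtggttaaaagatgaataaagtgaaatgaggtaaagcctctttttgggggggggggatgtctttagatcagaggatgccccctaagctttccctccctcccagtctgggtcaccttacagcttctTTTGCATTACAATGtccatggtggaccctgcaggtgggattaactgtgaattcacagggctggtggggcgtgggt
The Nanog stretch held an octamer core 75 to 69 bases before the gene start and a SOX sequence from 67 to 62 bases before it. Both lie in 1 run that matches TTTGCATNACAATG. That joined motif, which contains both shorter ones, occurred in 2 of the 32536 distinct 250-base stretches of the table (0.00615%). Both are Nanog's own, since RefSeq lists a second Nanog start 76 bases after the first and the 2 stretches overlap. Only this exact spelling and order, with 1 free base, was searched. Variants of the joined site in other promoters were not counted, so this share is not that of such sites in general. Sox2 had an octamer core 99 to 93 bases before its gene start, without the SOX sequence beside it. In neither the Sox2 nor the Nanog stretch do the letters extend the core to the full octamer. The octamer core alone occurred in 4.15% of stretches. The SOX sequence occurred in 10.5%. Pou5f1 had neither in these 250 bases, and its known Oct4 and Sox2 sites lie in the enhancers farther upstream. GC boxes, which Sp1-type factors bind, were found once at Pou5f1 (45 to 40 bases before the start), at 2 places at Sox2 and not at Nanog, against 33.0% of stretches with one or more. The TATA sequence TATAAA was in none of the 3 stretches and in 12.3% of the table. These matches describe the letters and not binding.

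H3K56ac intervals covered much more of each window than of the chromosome around it. At Pou5f1 they covered 8450 bp, 42.2% of the window, against a mean of 0.998% over the 4608 adjoining windows of that size between the first and last interval of chromosome 17. Sox2 had 22350 bp, 17.2% of its window, against a mean of 0.426% over 1196 windows of chromosome 3. Nanog had 12150 bp, 17.4%, against 0.557% over 2089 windows of chromosome 6. The members thus held 42.3 times, 40.3 times and 31.1 times the mean window, in that order of genes.

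Few windows held as much. At least 1 interval was present in 28.6% of the windows for Pou5f1, 46.6% of those for Sox2 and 41.1% of those for Nanog, so the typical window was empty and its median was 0. At least as many interval bases were found in 5 windows (0.109%) for Pou5f1, in 1 window (0.0836%) for Sox2 and in 3 windows (0.144%) for Nanog. By number of intervals the shares were 0.76% (35 windows with 15 or more), 0.167% (2 windows with 60 or more) and 0.239% (5 windows with 35 or more). All of the 3 loci thus had a smaller share of windows at their level by bases than by number, though by very few windows at Sox2 and Nanog. Windows laid edge to edge can split a dense stretch, whereas the member windows were placed on the loci. With a window at every 1 kb step, 0.124% of windows reached the bases of Pou5f1, 0.038% those of Sox2 and 0.174% those of Nanog, in 7, 1 and 4 separate stretches of the chromosome. Unmappable sequence was not left out of any of these windows. Counting only windows with an interval raised the share to 0.38% for Pou5f1, 0.18% for Sox2 and 0.349% for Nanog.

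**Figure D1:**
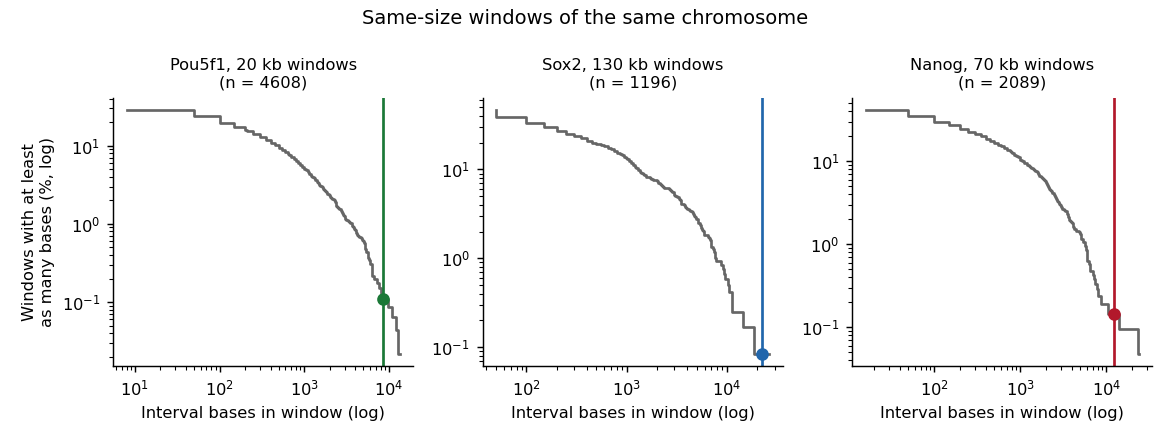
Share of same-size windows of the same chromosome (y, percent, log scale) with at least a given number of interval bases (x, log scale); windows without intervals count in the total but have no place on the axis. The coloured lines and points mark the Pou5f1 window (8450 bp), the Sox2 window (22350 bp) and the Nanog window (12150 bp), all near the right end of the curves.

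The member intervals were wider than those of the list. Their median width was 200 bp, against 100 bp for the whole list. Intervals of 1000 bp or more numbered 11 of 110 (10.0%), against 1.55% of the list, and those of 500 bp or more made up 24.5%, against 6.98%. Short intervals of 50 or 100 bp were 44.5% of the members and 58.2% of the list. The loci were not alike in this. Pou5f1 had 1 interval of 100 bp or less among 15 and a median width of 350 bp. Sox2 had 30 such short intervals among 60 and a median of 125 bp, and Nanog 18 among 35 and a median of 100 bp. Most bases nevertheless lay in the wider intervals: those of 100 bp or less held 1.18% of the interval bases at Pou5f1, 10.7% at Sox2 and 9.05% at Nanog.

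**Figure D2:**
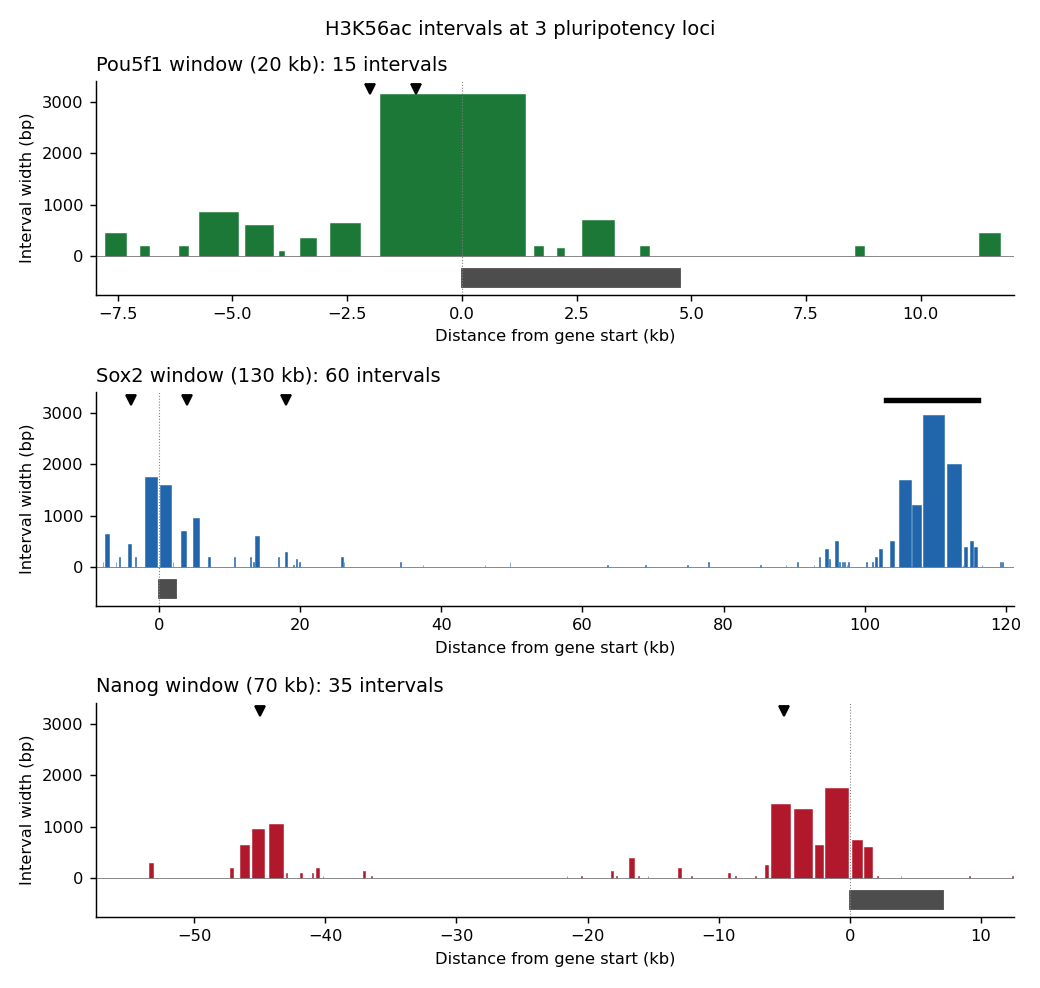
H3K56ac intervals in the Pou5f1, Sox2 and Nanog windows, by distance from the gene start (x, kb; negative is upstream), with bar width and bar height both showing interval width (y, bp). Grey boxes are the genes, triangles the known enhancers and the black line the distal control region of Sox2. Wide intervals lie at or beside all of the gene starts, at the far end of the Sox2 window and near -45 kb at Nanog.

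Pou5f1 had a single interval over its promoter. That interval was 3150 bp wide (35641201 to 35644350 on chromosome 17), and 28 intervals of the list, itself included, were as wide or wider. It ran from 1776 bp before the gene start to 1373 bp after it and so covered the promoter without a break. Of all 50 bp positions between the first and last interval of chromosome 17, 0.165% lay inside an interval of 1000 bp or more. The rest of the Pou5f1 intervals were mostly upstream. The 7977 bp of window before the gene were 64.9% covered, the gene itself 55.3% and the 7278 bp after it 8.93%, with 2 intervals of 200 and 450 bp. The next widest intervals were 850 bp (5726 to 4877 bp before the start) and 700 bp (2624 to 3323 bp after it). RefSeq lists a second Pou5f1 start 2775 bases after the first, a distance that falls in the 700 bp interval. The longest stretch without an interval, 4500 bp, began inside the gene near its end and ran on beyond it (35647051 to 35651550). The next protein-coding gene in RefSeq order is Tcf19, and the one before Pou5f1 is H2-Q10. Which gene the 2 intervals after Pou5f1 belong to was not analysed here.

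At Sox2 and Nanog the gene start itself lay in a short gap between wide intervals. At Sox2, an interval of 1750 bp (34546951 to 34548700 on chromosome 3) ended 227 bp before the gene start, and one of 1600 bp (34549101 to 34550700) began 174 bp after it, which leaves a gap of 400 bp. At Nanog, an interval of 1750 bp (122655651 to 122657400 on chromosome 6) ended 107 bp before the start, and one of 750 bp (122657701 to 122658450) began 194 bp after it, a gap of 300 bp. Pou5f1 had no such gap.

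Such a place was rare among all positions of the chromosome. Positions inside any interval were few too, 0.44% on chromosome 3 and 0.57% on chromosome 6. Other gene starts were not examined, so whether the gap is unusual for a gene start is not known. Of the 50 bp positions of chromosome 3, 0.00478% lay in a gap of at most 400 bp between intervals of 500 bp or more, and of chromosome 6 0.00867%. In the whole list, 930 of 22181 gaps of at most 400 bp (4.19%) had an interval of 500 bp or more on each side. These limits were chosen after the gaps at Sox2 and Nanog had been seen. Positions at most as far from an interval as the gene start made up 1.23% of chromosome 3 (174 bp, Sox2) and 1.34% of chromosome 6 (107 bp, Nanog). Positions inside an interval made up 1.01% of chromosome 17, where the Pou5f1 start is.

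Counted from the gene start, the joined octamer core and SOX sequence of Nanog fall inside its gap. The octamer core and both GC boxes of Sox2 fall inside the Sox2 gap. The Pou5f1 GC box falls inside the 3150 bp interval. The Sox2 gap takes in nearly all of the 250 bases searched there. The second Nanog start also falls in the gap. The sequences are from GRCm38.p6 and the intervals from mm9, so this holds if the bases around the start are the same in both builds, which was not tested. The gene lengths in the 2 sources were equal for Pou5f1 (4746 bp) and Nanog (7145 bp) and were 2456 and 2467 bp for Sox2. The farther Sox2 GC box, 223 to 218 bases before the start, is only a few bases from the interval that ends 227 bp before it. A Sox2 start a few bases farther upstream would put that box in the interval. Fewer nucleosomes at the gap and less acetylation of those present cannot be told apart in a list of positions, and neither can a signal just below the calling threshold.

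**Figure D3:**
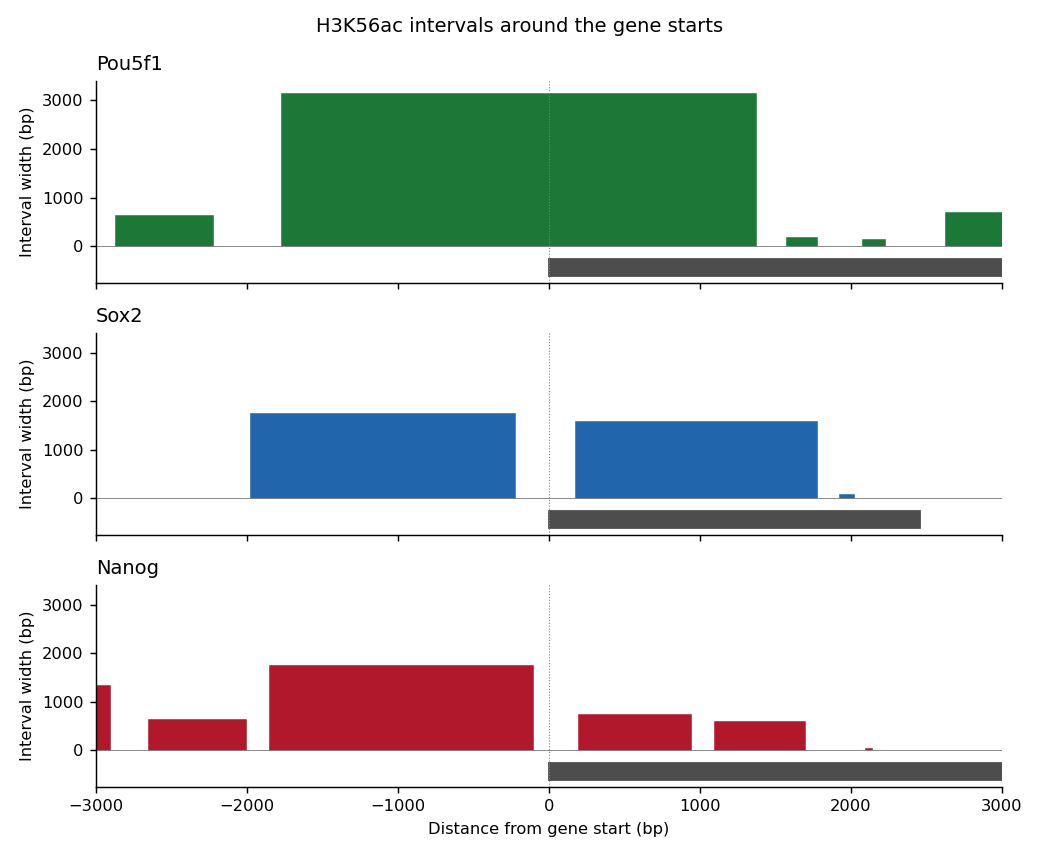
H3K56ac intervals around the gene starts (x, bp from the gene start, dotted line; y, interval width in bp; grey boxes, genes). The 3150 bp interval of Pou5f1 spans the start, while Sox2 has a gap of 400 bp and Nanog one of 300 bp at the start.

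In spans of one length around the starts, the 3 genes were more alike than in their windows of unequal size. Within 10 kb on either side of the start, intervals covered 8050 bp at Pou5f1 (40.2%), 7000 bp at Sox2 (35.0%) and 7150 bp at Nanog (35.7%). At least as many bases were found in 0.152% of the 4608 windows of that size on chromosome 17, 0.0385% of the 7783 on chromosome 3 and 0.0547% of the 7316 on chromosome 6. The number of intervals was 15, 12 and 13. No spread between samples exists to say whether these values differ. Of the gene bodies, 55.3% of Pou5f1, 69.2% of Sox2 and 20.3% of Nanog lay in intervals. These shares are over unlike lengths, since the genes are 4746, 2456 and 7145 bp long. In the first 1 kb after the start, intervals held 1000, 826 and 750 bp, in that order of genes. In the next 1 kb they held 574, 850 and 600 bp. Sox2 is a short gene with a single exon. At Nanog the intervals lay in the first part of the gene, up to 1693 bp after the start for those of 500 bp or more, followed by 2 of 50 bp.

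An interval was present at all of the 7 places taken for known enhancers. Taking 500 bp on either side of each place, an interval was present at 10 of 10 places (3 gene starts and 7 enhancers), where 4.77% of 1001 bp windows on chromosome 17, 2.23% on chromosome 3 and 2.99% on chromosome 6 had one. The places are textbook distances from the gene start, rounded to 1 kb, and not positions from the files. They were not independent, since neighbouring places at Pou5f1 share an interval. The chromosome is also not a local comparison. Of 1 kb bins in the windows, 6 of 21 were empty at Pou5f1, 71 of 131 at Sox2 and 36 of 71 at Nanog. The empty bins were mostly away from the places. At Pou5f1 all bins from -8 to 4 kb held interval bases. At Nanog all bins from -10 to 3 kb and from -48 to -41 kb did so. At Sox2 only the bin at -3 kb was empty from -8 to 7 kb. An interval at a place in these stretches was thus close to certain. Whether the places had more intervals than their surroundings was not tested.

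Pou5f1 has a proximal enhancer about 1 kb upstream, used mainly in the later, primed state, and a distal enhancer about 2 kb upstream, used in embryonic stem cells. The proximal place was covered over its whole length by the interval that also spans the promoter. The distal place was 55.0% covered, with 2 intervals that leave a gap of 450 bp between them (from 2227 to 1776 bp before the start). The -2 kb point lies in that gap. At Nanog, the enhancer about 5 kb upstream was 94.3% covered, within an interval of 1450 bp (122651501 to 122652950). The Nanog enhancer about 45 kb upstream was 84.3% covered, within an interval of 950 bp (122611901 to 122612850). Chromosome 6 had at least that cover in 0.0294% and 0.0568% of 1001 bp windows.

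At these rounded places, the near enhancers of Sox2 had less cover than those of Nanog. SRR1, about 4 kb upstream, was 45.0% covered by an interval of 450 bp. SRR2, about 4 kb downstream, was 32.4% covered, with its centre in a gap of 950 bp between intervals of 700 and 950 bp. SRR18, about 18 kb downstream, was 30.0% covered by an interval of 300 bp. Each of these values was still reached by few windows of chromosome 3: 0.248% for SRR1, 0.404% for SRR2 and 0.478% for SRR18. Of all 10 places, the centre lay inside an interval at 6 and in a gap at 4, namely the Sox2 and Nanog starts, the distal enhancer of Pou5f1 and SRR2. For the enhancers the centre is a distance rounded to 1 kb. Cover and gaps there thus describe the place taken and may differ at the element itself.

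**Figure D4:**
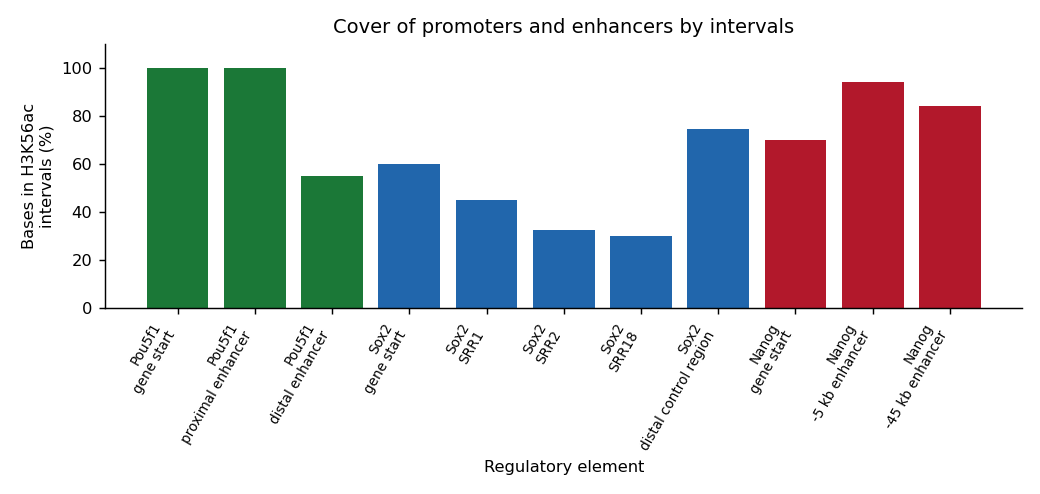
Share of bases in H3K56ac intervals (y, percent) at 10 places of 1001 bp and at the 13 kb distal control region of Sox2, coloured by gene (green Pou5f1, blue Sox2, red Nanog). Cover ranged from 30.0% at SRR18 to the whole length at the start and the proximal enhancer of Pou5f1.

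The densest block of intervals at Sox2 was not at the gene start but at its distal control region, the far enhancer that Sox2 needs in embryonic stem cells. That region (chr3:34652000-34665000, 13 kb) held 9 intervals with 9700 bp, 74.6% of its length. None of the other 11976 adjoining windows of that size on chromosome 3 (0.0%) held as much, and the fullest had 6800 bp (52.3%). With a window at every 1 kb step the fullest other window had 7200 bp (55.4%). The region had 4 of the 6 Sox2 intervals of 1000 bp or more. The widest was 2950 bp (34657151 to 34660100), a width that 40 intervals of the list, itself included, reached, followed by one of 2000 bp (34660551 to 34662550) and those of 1700 and 1200 bp before it. These 4 lay one after another, from 104824 to 113623 bp after the gene start. The 10 kb just before the region were 24.0% covered, by 13 intervals of up to 500 bp.

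Between the surroundings of Sox2 and the distal control region the intervals were sparser and shorter than at either. The span as a whole still held more than most windows of the chromosome. The 93.1 kb that start 10 kb after the gene start and end at the region were 5.80% covered, by 36 intervals with a median width of 100 bp and 2 of 500 bp or more. As much was held by 1.56% of 1671 windows of that size on chromosome 3. Much of this cover lay toward the ends. Of the 5400 bp, 2400 bp were in the 10 kb just before the region. The 2 intervals of 500 bp or more began 13624 and 95724 bp after the gene start. The middle of the span was not compared separately. The longest stretch without an interval in the window was 13750 bp (34598701 to 34612450). Beyond the window the cover fell further: the 130 kb before it held 3 intervals with 250 bp, and the 130 kb after it 7 intervals with 600 bp. Those flanks were ordinary for chromosome 3, where 27.3% and 18.6% of windows held as much. The lncRNA gene Sox2ot overlaps Sox2 in RefSeq, and the nearest protein-coding genes are Dnajc19 and Atp11b.

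Nanog also had 2 groups of wide intervals, but both were upstream or at its start. The 10 kb before the gene start were 56.5% covered, by 8 intervals of which 3 were 1000 bp or more (1450, 1350 and 1750 bp). The 10 kb around the -45 kb enhancer were 34.0% covered, by 9 intervals of which 1 reached 1000 bp (1050 bp, 122613201 to 122614250). As much was held by 0.041% and 0.137% of 10 kb windows on chromosome 6. The 30 kb between the groups were 4.17% covered, by 11 intervals with a median of 50 bp, a cover that 3.51% of windows of that size reached. The longest stretch without an interval was 14850 bp (122621051 to 122635900). After the gene, the 5349 bp to the end of the window held 2 intervals of 50 bp.

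Unlike Sox2, Nanog lay in a longer dense stretch. The 70 kb before its window held 15 intervals with 6750 bp (9.64%), and the 70 kb after it 29 intervals with 8900 bp (12.7%). As much was found in 0.479% and 0.191% of windows on chromosome 6. In RefSeq order, Nanog is preceded by Gdf3 and Dppa3, both expressed in pluripotent cells, and followed by the glucose transporter gene Slc2a3. Which of them the flanking intervals belong to was not analysed here. The Pou5f1 window had 2400 bp of intervals in the 20 kb before it and 650 bp in the 20 kb after it, which 1.78% and 8.27% of windows on chromosome 17 reached.

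Joined into clusters with gaps of less than 12500 bp, as is often done to define large enhancer domains, the loci ranked high but not at the top. Among 22232 clusters ordered by interval bases, the one at the Sox2 distal control region was number 105, with 35 intervals and 13000 bp. Pou5f1 was in number 140 (30 intervals, 11500 bp), the Nanog start in number 192 (34 intervals, 10000 bp) and the Sox2 start in number 200 (29 intervals, 9650 bp). All of these 4 fell within the first 0.900% of clusters. The cluster of the -45 kb enhancer of Nanog was number 725 (16 intervals, 4450 bp). On their own chromosomes the ranks were 5 for the distal control region, 12 for Pou5f1, 8 for the Nanog start and 8 for the Sox2 start. At this distance the gene and the distal control region of Sox2 were in separate clusters, and so were the start and the -45 kb enhancer of Nanog. With a joining distance of 25 kb each pair became 1 cluster. The Nanog one then spanned 241 kb with 89 intervals and 29800 bp, number 30 of 14585, and the Sox2 one 138 kb with 64 intervals and 22650 bp, number 63. Pou5f1 was then number 213, with 12650 bp. The order of the 3 loci by cluster thus depends on the joining distance. The clusters were not cut at the windows, and each of those named here reached beyond its window. The Nanog window held 35 intervals with 12150 bp and the Pou5f1 window 15 with 8450 bp. Part of each of these ranks therefore comes from intervals outside the window. How much of a cluster belongs to neighbouring genes was not analysed.

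**Figure D5:**
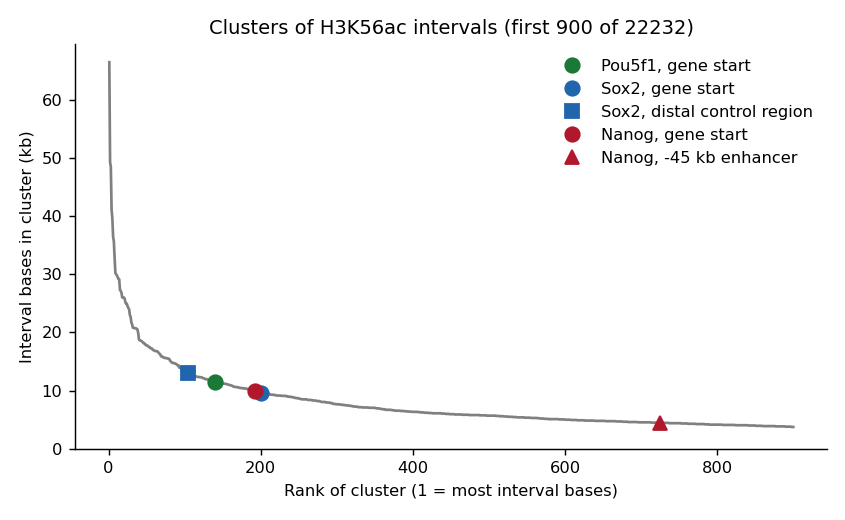
Interval bases per cluster (y, kb) by rank (x, 1 is the cluster with the most bases) for the first 900 of 22232 clusters. Points mark the clusters at the Pou5f1, Sox2 and Nanog gene starts (ranks 140, 200 and 192), at the Sox2 distal control region (105) and at the Nanog -45 kb enhancer (725).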

How the data were processed

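The authors deposited 1 interval list for the H3K56ac ChIP library. Per the submitters' processing notes the build is mm9 and Bowtie was used. The sources used here give no caller, threshold or role of the input. The deposited list holds start and end positions in bp and no counts or scores. All ends lay on a 50 bp grid, and all starts 1 bp past it, and positions are given in that form.

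From the list, intervals, covered bases, gaps and clusters were computed in the windows. The background was all windows of the same size between the first and last interval of the chromosome, laid edge to edge, without those that overlap the member window; no p-value was computed. The intervals named are the widest 3 of each window and those nearest the gene starts; others were chosen after their values were seen, as were the spans of 10 kb and the flanks. The members, windows and lists were chosen with earlier results of these data known. RefSeq tables of GRCm38.p6 gave sequences and gene order, and no coordinate was converted. The window, merging and cluster code was tested on simulated data. Alternatives were merging, a width filter, other windows and other joining distances. The work used scipy 1.17.1 and numpy 2.4.6 with pandas 2.3.3, and matplotlib 3.10.9 for figures, under Python 3.11.15.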

Additional observations from a re-analysis of the deposited data

How the results depend on the processing

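Of 47 alternative values, 31 stayed within 1.5 times the main count or within its exact 95% binomial interval, and 16 moved. These numbers do not measure robustness. Some values could not move, since wider places at the enhancers cannot lose an interval. The binomial intervals of the shares were also wide, from 0.00212% to 0.465% for Sox2. They treat windows as independent draws, although these were all adjoining windows of a chromosome in 1 library. They thus measure no spread between samples and served only as a cut-off. Merging intervals less than 500 bp apart lowered the number of intervals from 15 to 5 at Pou5f1, from 60 to 35 at Sox2 and from 35 to 20 at Nanog, and merging under 1000 bp lowered it to 3, 24 and 13. Merging under 1000 bp raised the interval bases to 12701 at Pou5f1, 36850 at Sox2 and 21150 at Nanog, since the gaps are then counted. Keeping intervals wider than 100 bp left 30 at Sox2 and 17 at Nanog. The share of windows with at least as many bases as Pou5f1 was 0.38% among windows with an interval and 0.76% by number of intervals. That for Sox2 was 0.0% with shifted windows. The cluster of the gene start held 22650 bp at Sox2 and 29800 bp at Nanog with a joining distance of 25 kb. Over all alternatives the share of windows stayed at or under 0.76% at Pou5f1, 0.18% at Sox2 and 0.349% at Nanog. The windows at every 1 kb step and the width filter at the enhancers were chosen after the data were examined. Without reads, the depth that limits these calls is unknown. No paired analysis was possible because 1 library was analysed.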
